A study of Mus musculus with 50 samples.

Results

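The partly shared peaks of this data set are the merged ATAC-seq peaks that were found in 2 to 5 of its 10 groups. They were chosen by the number of groups that the authors deposited beside each merged peak, and 36103 of the 144465 merged peaks qualified, 12186 of them with a number of 2, 9262 with 3, 7636 with 4 and 7019 with 5. They are called members below. The study ran ATAC-seq, a measure of open chromatin, on NeuN+ nuclei from the ventral hippocampus (taken on 1 side only), with 50 libraries that each stand for 1 male C57BL/6JRj mouse (Janvier Labs). The mothers came from 1 breeding population and were sent pregnant to 5 rearing facilities (RF1 to RF5), where the offspring were reared under the housing, diet and light cycle of each place. At time point 2 (TP2), 5 mice of each RF were taken at 14 weeks of age in a common test laboratory to which they had been moved. At time point 1 (TP1), 5 mice of each RF were taken at 8 weeks of age in the RF itself. All mice were wild type, and all samples carry the label of a freezing condition with hexane. RF1 and RF2 kept a normal light cycle and RF3, RF4 and RF5 a reversed one. Age, place and the amplification and sequencing batch all changed between TP2 and TP1 and cannot be told apart.

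ATAC-seq uses the Tn5 transposase, which cuts and tags DNA that is not wrapped in nucleosomes, so that reads pile up over open chromatin. Open sites at gene starts are often rich in CG dinucleotides and open in most cell types, whereas open sites far from gene starts include enhancers, many of which are open in some cell types or states only. A peak caller accepts a site when its reads pass a threshold over the surroundings, and a site of modest height can pass it in some libraries and miss it in others. The ventral hippocampus is known for its part in anxiety-related behaviour, and NeuN marks the nuclei of most neurons.

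To show what the DNA of the members looks like, the 250 bases before the gene start are printed for 4 members that lie on a start, beside 1 peak found in all 10 groups. Sequences are from the RefSeq promoter table of GRCm38.p6, 5′ to 3′ on the strand of the gene, with every CG dinucleotide in capitals. Zmynd8, which encodes a reader of histone marks, lies in the member with the most reads of these 4 (minus strand, chr2:165879531-165879780). Ankrd22, an ankyrin repeat gene, lies in a member that was higher in RF3 at TP2 (minus strand, chr19:34166042-34166291). Aldh1l1, a folate enzyme and marker of astrocytes (plus strand, chr6:90550543-90550792), and Olig2, a transcription factor of the oligodendrocyte lineage (plus strand, chr16:91225300-91225549), lie in members that were lower at TP2. Map2, a protein of neuronal microtubules, lies in a peak found in all 10 groups (plus strand, chr1:66175079-66175328).
Zmynd8: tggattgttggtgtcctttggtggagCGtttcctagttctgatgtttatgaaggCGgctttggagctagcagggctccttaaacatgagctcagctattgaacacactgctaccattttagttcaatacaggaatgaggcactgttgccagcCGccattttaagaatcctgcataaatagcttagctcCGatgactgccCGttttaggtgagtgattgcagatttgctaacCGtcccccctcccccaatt
Ankrd22: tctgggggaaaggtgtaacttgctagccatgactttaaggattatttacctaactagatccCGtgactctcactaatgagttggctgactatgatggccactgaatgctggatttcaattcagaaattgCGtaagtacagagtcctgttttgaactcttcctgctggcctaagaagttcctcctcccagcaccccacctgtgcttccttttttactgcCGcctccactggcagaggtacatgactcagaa
Aldh1l1: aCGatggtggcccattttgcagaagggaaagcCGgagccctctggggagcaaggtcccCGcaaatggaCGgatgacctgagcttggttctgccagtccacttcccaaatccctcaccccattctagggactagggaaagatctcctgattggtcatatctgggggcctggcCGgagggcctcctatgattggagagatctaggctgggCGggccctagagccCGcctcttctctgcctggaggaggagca
Olig2: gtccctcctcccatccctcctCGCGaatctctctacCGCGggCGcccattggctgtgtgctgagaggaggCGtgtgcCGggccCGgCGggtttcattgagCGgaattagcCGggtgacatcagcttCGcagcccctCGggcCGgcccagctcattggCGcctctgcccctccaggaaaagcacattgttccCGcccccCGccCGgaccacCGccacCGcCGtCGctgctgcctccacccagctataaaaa
Map2: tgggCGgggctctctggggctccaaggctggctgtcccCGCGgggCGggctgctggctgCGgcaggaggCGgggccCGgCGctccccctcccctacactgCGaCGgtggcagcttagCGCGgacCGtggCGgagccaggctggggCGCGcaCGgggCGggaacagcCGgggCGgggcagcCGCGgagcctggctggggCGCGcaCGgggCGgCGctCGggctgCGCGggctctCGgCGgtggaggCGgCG
The stretch held 6 CG dinucleotides at Zmynd8, 3 at Ankrd22, 7 at Aldh1l1 and 22 at Olig2, against 34 at Map2. The GC content was 47.2% at Zmynd8, 46.8% at Ankrd22, 59.6% at Aldh1l1 and 66.8% at Olig2, against 81.2% at Map2. An AP-1 motif (TGANTCA) began 10 bases before the start of Ankrd22, and a TATA box motif (TATAAA) 8 bases before the start of Olig2. The GC box motif (GGGCGG) occurred 5 times at Map2, 2 times at Olig2, 1 time at Aldh1l1 and not at Zmynd8 or Ankrd22. Such matches describe the letters only.

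Counts per library in all merged peaks ranged from 5111223 to 77396321 with a median of 35748372, and the 2 shallowest libraries were replicate 3 of RF1 and replicate 3 of RF2 at TP2, with 5111223 and 7287029 counts. Sampling noise, taken as 2 times the binomial variance with a tolerance of 2%, covered the whole difference between libraries in 20 of 100 pairs within a group, as judged on 16647 peaks whose mean count was 500 to 5000. It also covered 7 pairs across RFs at TP2. Replicate 3 of RF1 was alike to replicates 1 to 4 of RF2 in this sense, and replicate 5 of RF1, replicate 5 of RF2 and replicate 3 of RF5 were alike to each other. RF1 replicates 3 and 5 and RF2 replicate 5 at TP2 were thus like libraries of another RF than their own label gives, and the main counts at TP2 are given with and without these 3 libraries. The labels give a mouse of its own to each library, and the p-values below measure the spread between these libraries. By the paper, each TP2 mouse was a test-naive littermate of a TP1 mouse from the same cage. The labels do not say which libraries form such pairs. The comparisons between time points therefore treat the mice as independent. Map2, Rbfox3, which encodes NeuN, Slc17a7 of glutamatergic neurons and Gad1 of GABAergic neurons each had a peak of all 10 groups at the start, with 28.6, 33.7, 37.9 and 22.3 CPM on average (counts scaled to an equal total over all merged peaks in each library).

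The groups differed widely in how many members they held. A group held a member where peaks of at least 3 of its 5 libraries overlapped at the same bases. At TP2, RF1 held 5463 members (15.1%), RF2 6537 (18.1%), RF3 11662 (32.3%), RF4 5722 (15.8%) and RF5 17408 (48.2%). At TP1, RF1 held 20026 (55.5%), RF2 23127 (64.1%), RF3 9729 (26.9%), RF4 8187 (22.7%) and RF5 11299 (31.3%). RF3 and RF5 thus held more members at TP2 than at TP1, and RF1, RF2 and RF4 fewer. Without RF1 replicates 3 and 5 and RF2 replicate 5, with 3 libraries still needed, RF1 held 1977 members (5.48%) and RF2 2848 (7.89%) at TP2, where all 3 libraries left in RF1 had to agree. The median library of a group had 27142992 counts in RF1, 25660941 in RF2, 21653539 in RF3, 24616790 in RF4 and 33707384 in RF5 at TP2. At TP1 it had 52949870 counts in RF1, 46629248 in RF2, 40567752 in RF3, 41670555 in RF4 and 44453692 in RF5. RF5, the deepest group at TP2, held the most members there, but RF3 had the fewest counts at TP2 and held more members than RF1, RF2 and RF4. The part of depth in the numbers held was not tested.

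The share of a library's counts that fell in members varied much less than the number of members held. It was 8.66 to 10.5% over the 50 libraries, with a median of 9.63%. At TP2 it was highest in RF3, at 10.3 to 10.5% in the 5 libraries, and 9.41 to 9.85% over the libraries of RF1, RF2, RF4 and RF5. At TP1 it was highest in RF4, at 10.2 to 10.4%, and 8.66 to 9.90% over the libraries of the other 4 RFs. RF4 at TP1, with the highest share of that time point, held the fewest members there.

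**Figure D1:**
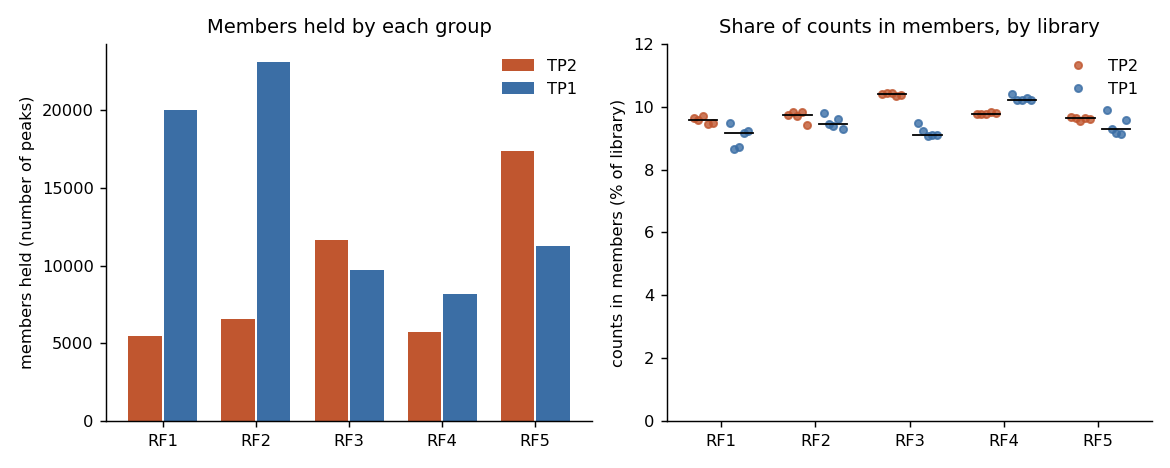
Left, the number of members held by each RF at TP2 (orange) and TP1 (blue). Right, the percentage of each library's counts that fell in members, with 1 point per library and a line at the median of 5. The bars run from 5463 to 23127 members, while the points stay between 8.66 and 10.5%.

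By the rule of 3 of 5 libraries, most members were held by groups of both time points. At TP2 only, 3030 members were held (8.39%), at TP1 only 8689 (24.1%), and at both 24384 (67.5%), of which 708 were held by a single RF (1.96% of all members). Of the members with a number of 2, 2335 were held at TP2 only, 4678 at TP1 only and 5173 at both. Of those with a number of 5, 16 were held by all 5 groups of TP2, 588 by the 5 groups of TP1 and 6415 at both. The number alone allows no more than 5 groups of 1 time point, so the share held at both rises with it by construction. These counts depend on the rule for holding. With 1 replicate number left out of all groups, 13288 to 16467 members were held at both time points, and with 4 of 5 libraries needed 7722, neither of them most members. Held by a single RF were 8480 to 9911 members with 1 replicate number left out and 1946 without the 3 libraries like another RF.

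Groups that shared the most members were not those of the same RF. In all, 795 combinations of groups occurred, and the 10 commonest took in 8903 members. The commonest was RF1 and RF2 at TP1 without any other group, with 1736 members (4.81%). It was followed by the same 2 groups with RF5 at TP2 (1005) and by RF3 and RF5 at TP2 (961). RF1 and RF2 at TP1 shared 13897 members, which was 69.4% of those held by RF1 and 60.1% of those held by RF2. RF5 at TP2 and RF1 at TP1 shared 9953, which was 57.2% of those of RF5 and 49.7% of those of RF1. By contrast, RF5 at TP2 shared 3785 members with RF5 at TP1 (21.7% of the TP2 members and 33.5% of the TP1 members). RF1 at TP2 shared 2431 with RF1 at TP1, and the fewest were shared by RF1 and RF2 at TP2 (944). Without RF1 replicates 3 and 5 and RF2 replicate 5 these were 887 and 176. A group that holds many members shares many, so these counts follow the number held by each group in part.

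Peaks called in single libraries were spread well beyond the groups that held a member. A member overlapped a called peak in a median of 20 of the 50 libraries (lower quartile 16, upper quartile 25, range 6 to 47). Where a group held a member, exactly 3 of its libraries had a call in 45.8% of cases, 4 in 34.8% and 5 in 19.3%. Where a group did not hold it, 0 libraries had a call in 25.0% of cases, 1 in 33.7%, 2 in 33.7% and 3 in 6.42%, the last with peaks that did not overlap each other at the same bases. Only 73 members (0.202%) had no call in any library of the groups that did not hold them. The calls themselves were weak: the median −log10 q of library peaks over members was 1.62 to 2.58 across libraries, against 2.68 to 10.9 over the peaks found in all 10 groups. A single library had a call in 4545 to 26403 members (median 14366).

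**Figure D2:**
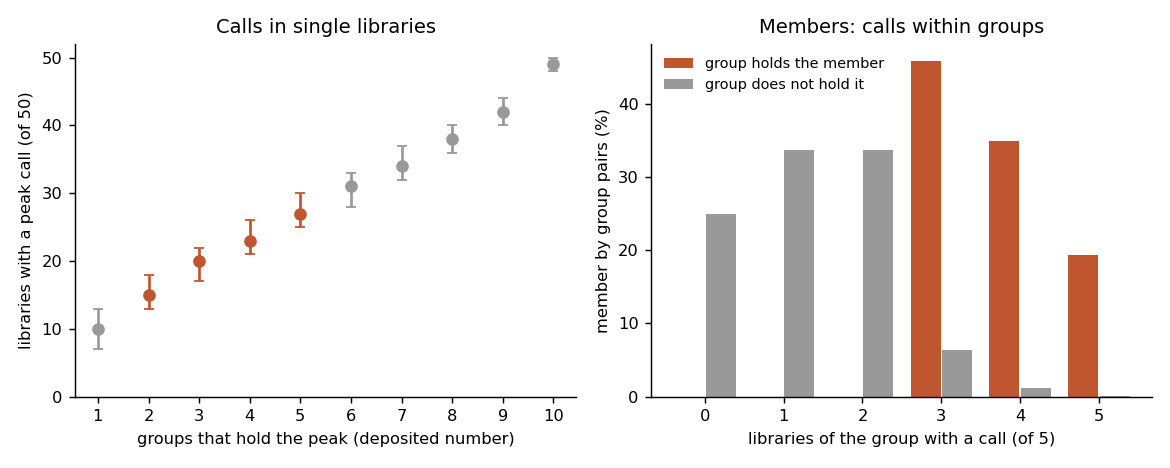
Left, the number of libraries of 50 with a peak call over a merged peak, by the deposited number of groups, as the median with the quartiles as bars and members in orange. Right, for every pair of a member and a group, the percentage with a call in 0 to 5 libraries, for groups that hold the member (orange) and groups that do not (grey). The median rises from 15 libraries at 2 groups to 27 at 5, and most groups that do not hold a member still have a call in 1 or 2 libraries.

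Read counts over the members followed the calls in direction but by a small margin. The mean CPM in groups that held a member exceeded that in groups that did not by a median ratio of 1.17 (lower quartile 1.06, upper quartile 1.302), and the ratio was over 1 in 88.3% of members. In 5136 members (14.2%) every group that held the member lay above every group that did not. In 11276 (31.2%) the group with the highest mean CPM was one that did not hold it. The median CPM of the members a group held ranged from 2.22 in RF1 at TP1 to 3.39 in RF4 at TP2, against 1.85 to 2.22 for those it did not hold. Peaks were called from the same reads as the counts, so these values describe how the members were chosen.

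Members were narrow and low beside the peaks found in every group. The mean CPM over all libraries had a median of 2.22 (lower quartile 1.59, upper quartile 3.26), with 172 members above 10 CPM. Just inside the limits, the median was 1.80 CPM at a number of 2 and 2.80 at 5, and just outside them 1.29 at 1 and 3.21 at 6. It was 9.13 for peaks found in all 10 groups. The median width was 998 bp, from 821 bp at 2 to 1241 bp at 5, with 599 bp at 1 and 1373 bp at 6 just outside. Per kb of width the median was 2.22 CPM in members, 2.14 in peaks of 1 group, 2.31 in those of 6 and 4.03 in those of all 10. Per kb the classes up to 6 groups were thus closer together. The highest group exceeded the lowest by a median ratio of 1.66 in members and 1.48 in peaks of all 10 groups. The median member had 12 to 172 counts in a library (median 76.5), so a value near 1 CPM rests on few reads in the shallow libraries.

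Counts of the members were compared between RFs at each time point, and between time points, in edgeR fits over all merged peaks. An RF effect was called at a false discovery rate (FDR) below 0.01. The comparisons use the reads behind the peak calls, so the numbers called among members describe them and are no independent evidence. In bulk nuclei, fewer nuclei of a type and less open chromatin per nucleus cannot be told apart. At TP2, 7093 of 36099 members tested depended on RF (19.6%, against 30.8% of all merged peaks). At TP1, 17707 of 36101 did (49.0%, against 59.1% of all). The interaction of RF and time point was called for 16282 members (45.1%, against 54.4% of all). The share called increased with the number of groups, and with it the CPM. At TP2 it was 14.8% at a number of 2 and 24.9% at 5, with 10.4% at 1 and 26.2% at 6 just outside. At TP1 it was 44.2% at 2 and 53.1% at 5, with 36.1% at 1 and 55.4% at 6 just outside.

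Each RF was then set against the mean of the other 4, and a difference was called where the FDR was below 0.01 and the log2 fold change at least 0.5 in size. At TP2, 4035 members (11.2%, against 7.44% of all peaks) differed in 1 RF or more, and at TP1 8890 (24.6%, against 19.7%). The percentages in brackets below are shares of all merged peaks tested that were called in the same way, not shares of the members. RF3 had the most higher members at TP2, 1738 (background 2.69% of all peaks), with 351 lower (0.888%). RF1 had 598 higher (1.14%) and 598 lower (1.22%), RF4 302 higher (0.541%) and 708 lower (1.32%), RF5 145 higher (0.217%) and 448 lower (0.688%), and RF2 77 higher (0.126%) and 15 lower (0.0464%). At TP1, RF1 led with 3840 higher (background 9.0% of all peaks) and 2662 lower (5.96%). RF5 followed with 1140 higher (2.28%) and 1508 lower (3.0%), RF3 with 780 higher (1.23%) and 594 lower (0.763%), RF4 with 304 higher (0.598%) and 797 lower (1.88%), and RF2 with 133 higher (0.168%) and 28 lower (0.072%). Among members higher in an RF, most were held by that RF: 87.7% for RF3 at TP2 and 94.7% for RF1 at TP1, but 58.0% for RF1 at TP2.

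The balance of higher and lower members depended on the scaling. With a loess offset on abundance, RF3 had 969 higher and 647 lower members at TP2 and RF1 825 and 324. At TP1, RF1 then had 2947 higher and 2695 lower, RF3 937 and 358, RF4 192 and 898 and RF5 1372 and 1069, so that RF5 had more higher than lower ones. With a 1 Mb region offset RF3 had 215 higher and 20 lower members at TP2 and RF1 233 and 120. At TP1 that offset gave RF1 370 higher and 1514 lower, RF3 502 and 190, RF4 998 and 401 and RF5 1029 and 820, so that the larger side changed in RF1, RF4 and RF5. No matching counts by RF over all merged peaks are given for these offsets. The share of all merged peaks dependent on RF at TP2 was 30.8% in the main fit, 27.8% with the loess offset and 8.50% with the region offset.

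The numbers at TP2 rested on a few libraries. Without RF1 replicates 3 and 5 and RF2 replicate 5, 13504 members (37.4%, against 49.5% of all) depended on RF at TP2 and 8934 differed in 1 RF or more. RF1 then had 2004 higher and 3339 lower members, RF2 578 and 251, RF3 2894 and 752, RF4 283 and 694, and RF5 828 and 1080. No matching counts by RF over all merged peaks are given for this set of libraries. The share of all merged peaks dependent on RF rose too, from 30.8% to 49.5%, so the rise was not particular to members. Leaving out replicate 5 of every group gave 9624 RF-dependent members at TP2 (26.7%, against 38.9% of all). Leaving out replicate 1, 2 or 4 gave 3030 (8.39%, against 17.4%), 2678 (7.42%, against 16.1%) and 3180 (8.81%, against 17.5%). When libraries that were alike within sampling noise were summed, which left 18 samples at TP2 and 21 at TP1, 2586 members (7.16%, against 14.2% of all) depended on RF at TP2 and 14356 (39.8%, against 49.1%) at TP1.

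Members called in the same RF at both time points were few, and the balance of directions differed by RF. Of the members higher in an RF at TP2, 61 were also higher in the same RF at TP1, 29 of them in RF1, 20 in RF4 and 12 in RF5. Lower in the same RF at both were 114, 77 of them in RF5 and 36 in RF4. In RF4, 56 were called in the same direction and 3 in opposite ones, and in RF5 89 and 36. In RF1 and RF3 opposite directions prevailed. In RF3, 145 were higher at TP2 and lower at TP1, and 109 were lower at TP2 and higher at TP1. In RF1, 98 were higher at TP2 and lower at TP1, and 224 were lower at TP2 and higher at TP1. RF2 had 1 in the same direction and none in opposite ones. Without the 3 libraries like another RF, the same direction was called in 91 and opposite ones in 1551 members for RF1, 1 and 485 for RF3, 55 and 2 for RF4, and 162 and 156 for RF5. The largest overlap across time points was between RFs: 753 members were higher in RF3 at TP2 and in RF1 at TP1, which is 43.3% of the RF3 members and 19.6% of the RF1 members. Likewise 412 of the 708 members lower in RF4 at TP2 (58.2%) were higher in RF1 at TP1, and 250 of the 448 lower in RF5 at TP2 (55.8%) were higher in RF3 at TP1. Of the 36101 members tested at TP1, 3840 were higher in RF1 and 780 in RF3. Over all 144458 merged peaks tested there, 12997 (9.0%) were higher in RF1 and 1779 (1.23%) in RF3. Overlaps and directions were not counted in the other merged peaks, so whether they are particular to members was not tested. Without the 3 libraries these overlaps were 1236 (42.7% of the RF3 members), 384 of 694 (55.3%) and 439 of 1080 (40.6%). These comparisons use different libraries, though the mice of the 2 time points were littermates.

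Single members show the size of such differences. Ankrd22 (chr19:34165684-34166677, 994 bp over the gene start) was held by RF3 at TP2 and RF1 at TP1. Its member had 3.10, 3.17, 2.65, 2.91 and 2.42 CPM in RF3 at TP2, against 0.549 to 1.85 CPM in the 20 libraries of the other RFs. The RF3 libraries thus stood clear of all others of that time point, with a log2 fold change of 1.31 ± 0.15 (SE, edgeR FDR 3.41e-10). At TP1 RF1 was higher by 0.61 ± 0.12 (FDR 3.08e-05), at 1.61 to 2.18 CPM against 0.882 to 1.69 CPM in the other RFs, which overlap. RF3 at TP1 had 0.882 to 1.56 CPM, well below its TP2 values.

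Actrt2, an actin-related gene of the male germ line, was the nearest gene to a member with opposite differences in RF3. The member (chr4:154654981-154655784, 804 bp, 10.6 kb outside the gene) had 0.507 to 1.25 CPM in RF3 at TP2, where the log2 fold change was −1.27 ± 0.22 (FDR 8.15e-06). At TP1 RF3 had 4.60 to 6.41 CPM, above every other library of TP1, with a log2 fold change of 1.61 ± 0.09 (FDR 1.28e-19). RF3 was thus low at TP2 and high at TP1. RF5 was also low at TP2, at 0.590 to 0.827 CPM. RF2 had 5.07, 2.72, 3.84, 3.34 and 0.768 CPM at TP2 and RF1 2.45, 3.24, 2.74, 2.89 and 0.879 CPM. In both RFs the low value was that of replicate 5, which stood with RF5. With alike libraries summed, the RF3 value at TP2 was −1.19 at an FDR of 0.0158.

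The same split within RF1 and RF2 recurred in members low in RF5 at TP2. Ccdc34 encodes a protein with a coiled coil, and its member (chr2:110134783-110135486, 704 bp, inside the gene) had 0.295 to 0.463 CPM in RF5 at TP2, a log2 fold change of −1.96 ± 0.27 (FDR 1.02e-05). RF2 had 2.46, 2.80, 3.98 and 4.11 CPM there, but 0.730 in replicate 5, and RF1 1.57 to 2.54 CPM with 0.527 in replicate 5. Nat8, an acetyltransferase gene, had a member 3.15 kb from its start (chr6:85840009-85840256, 248 bp) with 0.0827 to 0.229 CPM in RF5 at TP2. RF2 had 0.967 to 1.32 CPM and 0.0768 in replicate 5, and RF1 0.689 to 1.96 CPM and 0.117 in replicate 5. The log2 fold change of RF5 was −2.19 ± 0.39 (FDR 0.000124). With alike libraries summed it was −2.16 for Nat8 (FDR 0.0343) and −1.89 for Ccdc34 (FDR 0.0254), so neither passed. In RF4 at TP2, a member inside Snd1, which encodes a nuclease of RNA-protein complexes, had 0.150 to 0.482 CPM (chr6:28928078-28928250, 173 bp, log2 fold change −1.64 ± 0.30, FDR 4.86e-05). Replicate 3 of RF2, with 7287029 counts in all, had 0 counts there and replicate 4 of RF1 0.474 CPM, so that RF4 overlapped other RFs. RF5 had 0.961 to 1.45 CPM.

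The largest fold changes belonged to a member near Col19a1, a collagen gene. It spans 188 bp 24.7 kb outside the gene (chr1:24612661-24612848), in a stretch of chromosome 1 known to carry a copy of mitochondrial DNA, so that its reads may come from mitochondria and the counts are uncertain. RF4 had 21.1, 21.8, 21.9, 22.1 and 20.2 CPM at TP2, while RF3 had 1.80 to 2.93 and RF5 1.69 to 2.70. RF2 had 9.20, 9.01, 10.3 and 9.57 CPM and 2.34 in replicate 5, and RF1 2.51, 3.35, 2.93 and 2.29 CPM and 9.0 in replicate 3. Replicate 5 of RF2 and replicate 3 of RF1 thus stood with another RF here as over all peaks. The other libraries of RF1 overlapped the range of RF5, so this member cannot place replicate 5 of RF1 with either. The log2 fold change of RF4 was 2.73 ± 0.18 at TP2 (FDR 1.11e-07) and 3.17 ± 0.10 at TP1 (FDR 2.11e-30). At TP1 RF4 had 9.22 to 16.2 CPM, RF2 4.92 to 5.36, RF3 2.45 to 4.74, RF1 0.291 to 0.694 and RF5 0.112 to 0.445 CPM. The log2 fold change of RF5 was −3.56 ± 0.19 there (FDR 1.05e-20).

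At TP1 the other extreme members were low or high in 1 or more RFs. A member in a gene-free Mb, 1209 kb from Ndufa4 of the respiratory chain (chr6:10690472-10690885, 414 bp), had 0.246 to 0.517 CPM in RF2 against 1.33 to 3.68 CPM in the other RFs (−2.54 ± 0.15, FDR 4.58e-19), and it was held by those 4 RFs at TP1. In RF2 at TP2 it had 1.13 to 2.15 CPM. A member 63.9 kb from Fam171a1 (chr2:3050169-3050349, 181 bp) had 2.27 to 3.36 CPM in RF5 against 0.248 to 1.34 CPM in the others (2.01 ± 0.13, FDR 5.13e-18). RF5 had 0.216 to 0.426 CPM there at TP2. In both members the RF that stood out at TP1 did not at TP2. A member 125 kb from Tcte2, a gene of the mouse t complex (chr17:13590393-13591562, 1170 bp), had 5.94 to 8.50 CPM in RF5 (1.73 ± 0.09, FDR 2.39e-22) and 0.987 to 1.38 CPM in RF1 (−1.49 ± 0.12, FDR 8.1e-16). Inside Pde3a, a phosphodiesterase gene, a member (chr6:141495644-141496064, 421 bp) had 0.137 to 0.515 CPM in RF4 (−1.74 ± 0.20, FDR 6.29e-10), with RF1 (1.05, FDR 3.69e-08) and RF3 (0.77, FDR 0.000232) called higher.

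**Figure D3:**
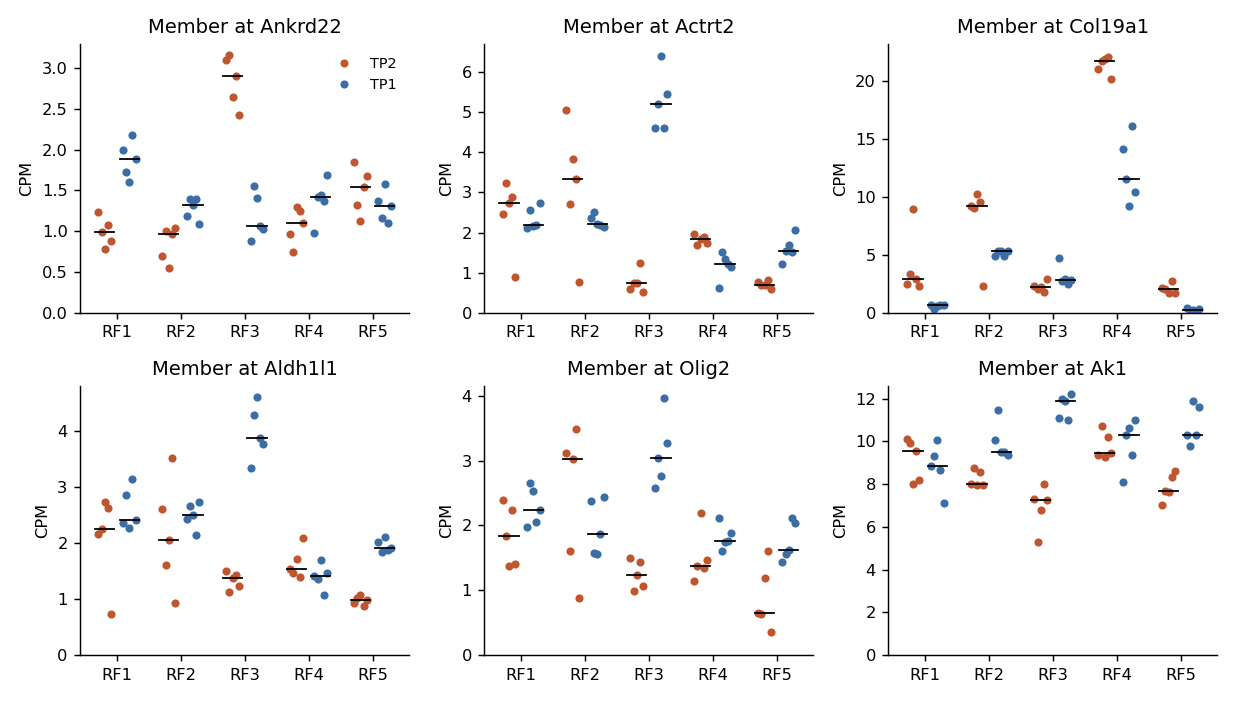
CPM of 6 members in each library, by RF, at TP2 (orange) and TP1 (blue), with a line at the median of 5 libraries. Ankrd22 is highest in RF3 at TP2 (2.42 to 3.17 CPM), Actrt2 in RF3 at TP1 (4.60 to 6.41), and the member near Col19a1 in RF4 at TP2 (20.2 to 22.1). Aldh1l1 and Olig2 are highest in RF3 at TP1, and Ak1 spans 5.28 to 10.7 CPM at TP2 and 7.13 to 12.2 at TP1.

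Few members differed between time points over all RFs. At TP2, 750 members were higher than at TP1 (2.08%, against 1.71% of all peaks) and 585 lower (1.62%, against 0.932%). Without RF1 replicates 3 and 5 and RF2 replicate 5 at TP2 there were 590 and 481. With a 1 Mb region offset both numbers fell, and the lower members outnumbered the higher ones. The 2 sets lay in different places. Of the higher members, 72.9% were outside genes, 0.418% within 2 kb of a gene start and 66.1% in a Mb with 2 genes or fewer. Of the lower ones, 49.0% were outside genes, 10.6% within 2 kb of a start and 6.50% in such a Mb, and their median width was 484 bp, against 1037.5 bp in the higher members. Gm40369, a predicted gene, had a member held by all 5 groups at TP2 and by none at TP1 (chr6:47654430-47655021). It had 0.894 to 2.61 CPM at TP2 and 0.449 to 1.24 CPM at TP1, which overlap, with a log2 fold change of 1.01 ± 0.10 (FDR 1.49e-15). A member 941 kb from Adcyap1, which encodes the neuropeptide PACAP (chr17:92256692-92257728), was held by RF3 and RF5 at TP2 and was higher there by 1.022 ± 0.12 (FDR 1.69e-12).

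Among the members lower at TP2, 1 lay 158 kb outside Inhbb, which encodes an inhibin subunit (chr1:119256729-119257134), with 0.192 to 2.22 CPM at TP2 against 0.772 to 3.61 CPM at TP1 (−0.96 ± 0.13, FDR 4.82e-09). Another lay 16.9 kb from Echdc3 (chr2:6229895-6230265, −0.91 ± 0.14, FDR 1.79e-08). The last of the 3 was inside LOC100504180 in the Dux repeat array (chr10:58223946-58225610, −0.94 ± 0.09, FDR 1.51e-13), whose near-identical copies make the counts uncertain. Ak1, which encodes adenylate kinase, was split in holding: all 5 groups of TP1 held its member at the start (chr2:32628386-32629497) and none of TP2 did, as for 591 members in all. Its CPM nevertheless overlapped, at 5.28 to 10.7 at TP2 and 7.13 to 12.2 at TP1, with a log2 fold change of −0.34 ± 0.04 (FDR 2.51e-11) that stayed under the size limit. RF1 had 8.02 to 10.1 CPM at TP2 and 7.13 to 10.1 at TP1, so the difference was not shared by every RF.

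Of the members held by a single RF at both time points, most did not pass the test for that RF. Of the 708, 252 were held by RF5, 192 by RF2, 107 by RF4, 106 by RF1 and 51 by RF3. The log2 fold change of the holding RF was positive at both time points in 465 and was called higher at TP2 in 30, at TP1 in 98 and at both in 10. These were 4.24% and 13.8% of the 708, where the same test was called in 0.126 to 2.69% of all merged peaks at TP2 and 0.168 to 9.0% at TP1, by RF. Without the 3 libraries like another RF 62 were called at TP2 and 19 at both. The members were picked by peak calls from the same reads, so nothing is read from these shares. The median log2 fold change was largest in RF4, at 0.31 at TP2 and 0.32 at TP1. The members with the most reads in each RF were near Arsi for RF1 (chr18:60891100-60892570, 6.66 CPM), inside Dgki for RF2 (chr6:37292578-37294798, 7.73 CPM), inside Arpp19 for RF3 (chr9:75054034-75055948, 4.82 CPM), inside Syt7 for RF4 (chr19:10451849-10453262, 9.47 CPM) and inside Slc12a5 for RF5 (chr2:164997773-164999170, 9.18 CPM). None of these 5 was called in its RF against the mean of the others at either time point, though Syt7 (FDR 0.000912 at TP2 and 0.00498 at TP1) and Slc12a5 (FDR 0.00248 and 0.0020) depended on RF at both. Syt7, a calcium sensor of vesicle release, had 9.14 to 9.89 CPM in RF4 at TP2, inside the range of the other RFs (7.30 to 13.7 CPM), and 10.8 to 12.1 CPM in RF4 at TP1, above all of theirs (6.03 to 10.3), with 0.18 ± 0.06 (FDR 0.0263). Slc12a5, the neuronal chloride exporter KCC2, had 8.19 to 8.95 CPM in RF5 at TP2, inside the range of the other RFs (4.30 to 11.9 CPM), and 8.90 to 11.1 CPM in RF5 at TP1.

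Some members with many reads had like counts in groups that held them and groups that did not. The member over the start of Zmynd8 (chr2:165877893-165880685, 2793 bp) was held by RF1 and RF5 at TP2 and RF5 at TP1, with a mean of 18.8 CPM. It had 15.1 to 21.3 CPM at TP2 and 14.8 to 23.7 CPM at TP1, and RF4 at TP2, which did not hold it, had 18.5 to 21.3 CPM. The start of 1700029I15Rik lay in the member with 19.6 CPM (chr2:92380735-92384068), and a member 1.56 kb from a start of Arpp21, a brain phosphoprotein gene, had 9.71 CPM (chr9:112212716-112215706). Nkx6-2, a transcription factor of the oligodendrocyte lineage, lay in a member with a deposited number of 5 (chr7:139578985-139583225, 4241 bp, 9.78 CPM). The rebuild of the merged list found it in 9 groups, all but RF3 at TP2. In all, 1139 members were held by more groups than their number, and 438 of them by more than 5.

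Members lay far from gene starts. Chromosome 18 has no entry in the promoter table, so the 34786 members on the other chromosomes were placed. Of these, 909 lay within 2 kb of a start (2.61%, 95% Wilson interval 2.45 to 2.79%), against 2.08% of the peaks of 1 group, 3.34% of those of 6 to 9 groups and 19.6% of those of all 10. A further 20475 (58.9%) were inside genes and 13402 (38.5%) outside. The median distance to the nearest start was 65.2 kb in members, 36.2 kb in peaks of all 10 groups and 51.4 kb in all merged peaks. Members with 4 or 5 groups were within 2 kb in 2.86% and those with 2 or 3 in 2.44%. The table has a start for 81.8% of the genes, so these shares are lower bounds.

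Where a member was held went with where it lay. Members held at TP2 only were within 2 kb of a start in 1.11% and had a median width of 1366.5 bp, whereas those held at TP1 only were so in 3.58% and had 543.5 bp. RF1 and RF4 at TP2 held members that were inside genes in 68.0% each, and RF3 at TP2 in 54.3%. Libraries were shallower at TP2 than at TP1, and the part of depth in these widths was not tested.

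**Figure D4:**
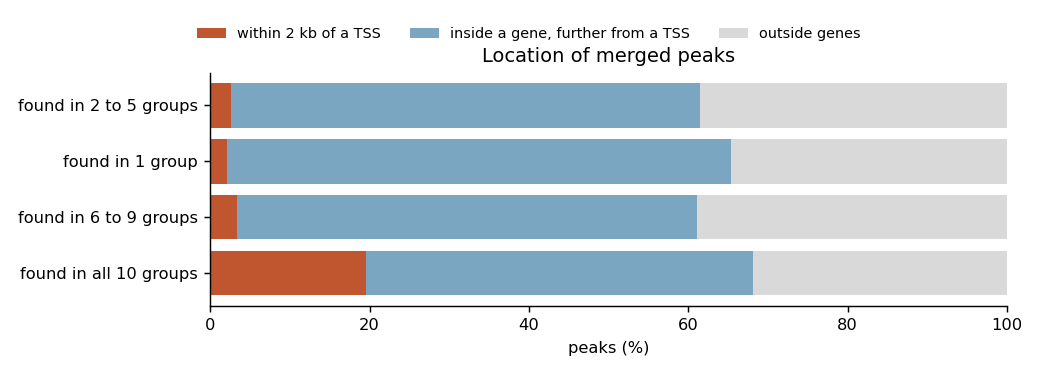
Percentage of merged peaks within 2 kb of a gene start (orange), inside a gene but further from a start (blue) and outside genes (grey), by the number of groups, without chromosome 18. Members reach 2.61% within 2 kb and peaks of all 10 groups 19.6%.

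The few members that covered a gene start had promoters of intermediate CG content. In all, 448 promoter windows of 300 bases (250 before and 50 after the start), of 424 genes, had their start inside a member. Their median GC content was 57.3% with 10 CG dinucleotides, against 62.0% and 22 in peaks of all 10 groups and 56.3% and 13 over all 21263 windows. It was 47.0% with 3 in windows whose start lay in no merged peak. A ratio of observed to expected CG above 0.6, as in CpG islands, was met by 29.7% of the windows in members, 75.7% of those in peaks of all 10 groups and 47.6% of all. It was met by 28.1% of those in peaks of 1 group and 37.4% of those in peaks of 6 to 9. Of short motifs searched on both strands, the AP-1 motif TGANTCA occurred in 9.82% of the windows in members, 4.12% of those in peaks of all 10 groups and 6.99% of all windows. It occurred in 10.7% of windows in peaks of 1 group, 8.13% in those of 6 to 9 and 11.1% of windows whose start lay in no merged peak. The E-box CAGATG occurred in 16.96% of windows in members, 10.7% in peaks of all 10 groups and 14.6% of all. In peaks of 1 group it was 16.9%, in those of 6 to 9 groups 16.6% and in no merged peak 20.2%. The GC box GGGCGG occurred in 46.2%, 67.0% and 46.2% of these windows, the CRE core TGACG in 16.5%, 32.4% and 23.6%, and the palindromic NRF1 motif in 2.46%, 14.3% and 8.57%. Windows in members thus stood near the average of all windows in the GC box and below it in the CRE core and NRF1 motifs. Windows in peaks of 1 group and of 6 to 9 groups did likewise, so these traits were not particular to members. No test was made of these shares. Of 1005 miRNA hairpins of the RefSeq table, 33 overlapped a member and 305 any merged peak.

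Members were common in gene-poor regions, and the RFs differed along this axis. Of the members, 23.2% lay in a 1 Mb bin with 2 protein-coding genes or fewer, against 21.9% of the peaks of 1 group, 14.5% of those of all 10 and 19.2% of all. Over 20 genes were in the bin of 10.9% of members and 17.2% of peaks of all 10 groups. Among members higher in RF3 at TP2, 53.9% lay in the gene-poor bins, as did 51.2% of those higher in RF1 at TP1, 57.2% of those lower in RF4 at TP2, 51.8% of those lower in RF1 at TP2 and 45.9% of those lower in RF5 at TP1. The opposite sets were nearly absent from such bins: 3.42% of members lower in RF3 at TP2, 6.19% of those higher in RF1 at TP2 and 4.58% of those lower in RF1 at TP1. Over all merged peaks called in the same way the shares were close, at 53.9% for higher in RF3 at TP2, 45.8% for higher in RF1 at TP1, 54.2% for lower in RF4 at TP2 and 3.04% for lower in RF3 at TP2, so the pattern was not particular to members. Without the 3 libraries like another RF, 51.8% of members higher in RF3, 49.4% of those lower in RF1 and 53.7% of those lower in RF4 at TP2 lay in the gene-poor bins.

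The same axis ran through all members, called or not, and through the other merged peaks. The median log2 ratio of an RF to the mean of the 5 RFs, in bins with 2 genes or fewer and in bins with over 20, was 0.23 and −0.09 in RF3, 0.07 and −0.15 in RF5, −0.15 and 0.08 in RF1, and −0.13 and 0.15 in RF4 at TP2. At TP1 it was 0.16 and −0.29 in RF1, −0.15 and 0.09 in RF3, −0.12 and 0.07 in RF5, and 0.08 and 0.16 in RF4. In peaks of all 10 groups it was 0.17 and −0.15 in RF3 at TP2 and 0.17 and −0.18 in RF1 at TP1, and in peaks of 1 group 0.21 and −0.09 in RF3 at TP2 and 0.10 and −0.32 in RF1 at TP1. Without the 3 libraries like another RF, the members had 0.26 and −0.11 in RF3, 0.09 and −0.17 in RF5, −0.24 and 0.14 in RF1, and −0.10 and 0.12 in RF4 at TP2. RF1, RF3 and RF5 each tilted one way at TP2 and the other way at TP1. RF2 had −0.01 and 0.02 at TP2 and 0.05 and −0.03 at TP1. The numbers held tilted alike: RF5 at TP2 held 61.5% of the members in gene-poor bins and 30.4% of those in bins of over 20 genes, RF3 at TP2 47.1% and 16.7%, and RF1 at TP1 66.6% and 38.4%. RF3 at TP1 held 15.2% and 44.0%, and RF5 at TP1 19.1% and 46.5%.

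Within groups the axis was tight in some and wide in others. The share of a library's member counts in gene-poor bins was 22.5 to 23.2% in RF3 at TP2 and 17.4 to 18.4% in RF3 at TP1. It was 18.1 to 21.7% in RF1 at TP2, where replicate 5, alike to a library of RF5, was the highest (18.1 to 18.9% without replicates 3 and 5), and 21.98 to 22.5% in RF5 at TP2. In RF1 at TP1 it ran from 19.4 to 23.5%. An offset per 1 Mb region in the fit, which removes shifts shared by a region, gave 1376 RF-dependent members at TP2 (3.81%, against 8.50% of all peaks), in place of 7093, and 15964 at TP1. The source of the regional shift was not tested.

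**Figure D5:**
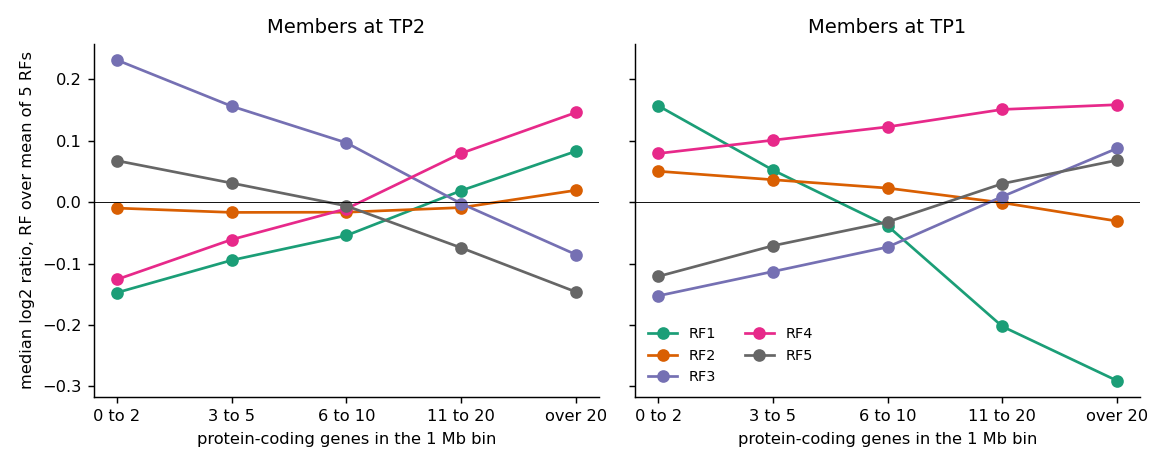
Median over members of the log2 ratio of each RF to the mean of the 5 RFs of the same time point (y axis), by the number of protein-coding genes in the 1 Mb bin (x axis), at TP2 (left) and TP1 (right). RF3 goes down from 0.23 to −0.09 with gene density at TP2, and RF1 goes down from 0.16 to −0.29 at TP1.

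The X chromosome, of which males carry 1 copy, was rich in members. Members made up 30.5% of its merged peaks (703), against 22.6 to 26.4% on the autosomes. RF1 held 8.39% of them at TP2 and 80.9% at TP1, RF5 held 65.1% at TP2, and RF4 held 7.11% at TP2 and 7.40% at TP1. The median log2 ratio of RF1 to the mean of the RFs over these members was −0.16 at TP2 (−0.28 without replicates 3 and 5 and RF2 replicate 5) and 0.33 at TP1. Of the members higher in RF1 at TP1, 320 (8.33%) were on the X chromosome, and of those lower in RF5 at TP1, 144 (9.55%), while 1.95% of all members are. The X chromosome share of all merged peaks called in the same way is not given, so whether this was particular to members was not tested. Only 2 members were on the Y chromosome.

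In gene families of neurons, members were a larger share of the merged peaks inside genes than at starts, as over all genes. Of the merged peaks inside genes of glutamate receptors, 265 of 903 were members (29.3%), inside genes of synaptic adhesion 212 of 735 (28.8%), inside cadherins and protocadherins 182 of 651 (28.0%) and inside clock genes 48 of 157 (30.6%). It was 25.2% inside genes of GABA receptors and of sodium and calcium channels, 22.9% inside those of potassium channels (238 of 1038), 18.5% inside the Zfp zinc finger genes (197 of 1065) and 16.1% inside those of serotonin and dopamine receptors (10 of 62). Members made up 25.0% of all merged peaks and 23.7% of those inside genes, so these families lay on both sides of the average. Over all genes off chromosome 18, 909 of 12689 merged peaks within 2 kb of a start were members. At starts of potassium channels 10 of 81 were, and at those of sodium and calcium channels 4 of 38. For glutamate receptors it was 2 of 20 and for cadherins and protocadherins 1 of 22. None were among the few peaks at starts of synaptic adhesion (19), GABA receptor (12) or serotonin and dopamine receptor genes (14). Of 317 peaks at Zfp starts, 7 were members, while 281 Zfp genes had a peak of all 10 groups. Olfactory and vomeronasal receptors, which are used mainly by sensory neurons of the nose, had 13 members at starts, at 1.25 to 2.74 CPM, of which 6 depended on RF at TP2, 7 at TP1 and none differed between time points (19.6% and 49.0% of all members, and 30.8% and 59.1% of all merged peaks, depended on RF).

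Potassium channel genes had 10 members at their starts, of which 2 depended on RF at TP2 and 4 at TP1, near the shares of all members. Kcnn1, a calcium-activated channel (chr8:70854683-70855728), had the most reads of these at 5.62 CPM and a log2 fold change between time points of −0.34 ± 0.05 (FDR 2.15e-08). Of the 4 members at sodium and calcium channel genes, Cacna1c, a subunit of L-type calcium channels (chr6:118757176-118758287), had the most reads at 3.99 CPM. Grin3b, a subunit of NMDA receptors (chr10:79970730-79971295), had 1.29 to 3.54 CPM at TP2 and 2.07 to 4.31 CPM at TP1, a log2 fold change of −0.50 ± 0.07 (FDR 5.89e-10) that passed the size limit. Cdh23, a cadherin of hair cells (chr10:60697069-60697364), was lower at TP2 with a log2 fold change of −0.53 ± 0.08 (FDR 9.87e-08).

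The 16 clock genes with a start in the table, and the 15 immediate early genes of neuronal activity with one, each had a peak of all 10 groups there. Among the clock genes, Npas2 also had a member near its start and no other did (chr1:39195251-39197069, 6.66 CPM), with 4.94 to 8.35 CPM at TP2 and 5.14 to 7.93 CPM at TP1 (0.09 ± 0.04, FDR 0.0766). RF-dependence was called for it at TP1 (FDR 0.00932) and not at TP2 (FDR 0.127). Of the immediate early genes, only Fos had one, 1.31 kb from its start (chr12:85472018-85472580, 4.29 CPM). It had 2.79 to 3.46 CPM in RF3 at TP2 and 2.86 to 4.23 CPM in RF4 at TP1, where RF4 was lower, with a log2 fold change of −0.57 ± 0.09 (FDR 9.59e-07). Between time points the log2 fold change was −0.37 ± 0.05 (FDR 1.4e-08), under the size limit. The glucocorticoid targets Sgk1 and Tsc22d3 had 3 members at starts, none different between time points, and the defensin gene Defb29 had 1.

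Starts of genes of glial and endothelial cells, which the NeuN sort should remove, included 6 members. Of 25 such markers, 16 have a start in the table, 9 had a merged peak there and 6 a member, and 3 had a peak of all 10 groups. All 4 markers of neurons in general with a start in the table had a peak of all 10 groups and no member there. Such a peak was also at 5 of 5 pyramidal and 3 of 3 dentate granule markers, but at only 3 of 7 GABAergic ones. C1ql2, a dentate granule marker, had a member near its start too (3.20 CPM), which depended on RF at both time points. Members at marker starts were thus not confined to glial and endothelial genes. The 6 members at glial and endothelial starts had negative log2 fold changes of TP2 over TP1, and 3 passed the thresholds. Of all members tested, 585 of 36101 were lower at TP2, and of all merged peaks 0.932%. The 3 were Aldh1l1 (−0.65 ± 0.09, FDR 8.02e-10), Gjb6, an astrocyte connexin (chr14:57133204-57133763, −0.67 ± 0.11, FDR 1.02e-07), and Olig2 (−0.57 ± 0.10, FDR 3.06e-06). In the largest other lists, the median over members at starts was −0.17 for potassium channels, −0.10 for Zfp genes and 0.17 for olfactory and vomeronasal receptors. Whether the drop was particular to glial and endothelial genes was not tested. Olig2 fell short of the size limit without RF1 replicates 3 and 5 and RF2 replicate 5 at TP2 (−0.48), and with a 1 Mb region offset both Olig2 (−0.47) and Aldh1l1 (−0.48) did. With 1 replicate number left out of all groups, the smallest size was −0.41 for Olig2 and −0.497 for Gjb6, both short of the limit. Gfap of astrocytes (chr11:102898149-102899052) had −0.42 ± 0.07, Cldn5 of endothelial cells (chr16:18777036-18777747) −0.39 ± 0.09 and Trem2 of microglia (chr17:48346091-48347257) −0.17 ± 0.07.

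Some of these members also differed between RFs. Aldh1l1 (chr6:90550221-90550966) had 0.883 to 1.07 CPM in RF5 at TP2, where replicate 5 of RF1 (0.732) and of RF2 (0.922) were as low, while the other libraries of RF1 to RF4 had 1.12 to 3.53 CPM. At TP1 it had 3.34 to 4.61 CPM in RF3, against 1.07 to 3.15 CPM in the other RFs. RF3 was thus clear of every other library at TP1. Gfap had 1.67 to 2.23 CPM in RF5 at TP2 and 5.71 to 6.84 CPM in RF3 at TP1, and Olig2 (chr16:91224878-91225864) had 0.361 to 1.60 CPM in RF5 at TP2 and 2.58 to 3.97 CPM in RF3 at TP1. The log2 fold change of RF5 at TP2 was −0.86 for Gfap, −0.82 for Aldh1l1 and −0.99 for Olig2, and that of RF3 at TP1 was 0.92 ± 0.08 for Gfap, 0.99 ± 0.09 for Aldh1l1 and 0.71 ± 0.11 for Olig2. The other 3 were called in neither. Trem2 was called higher in RF5 (0.61, FDR 7.43e-07) and lower in RF1 (−0.60, FDR 1.69e-06) at TP1, with 0.12 in RF3 (FDR 0.404). Gjb6 was called lower in RF4 at TP1 (−0.60, FDR 0.00137), with 0.33 in RF3 (FDR 0.0656), and had −0.48 in RF5 at TP2 (FDR 0.135). Cldn5 was called lower in RF1 at TP1 (−0.67, FDR 2.79e-05), with 0.37 in RF3 (FDR 0.0231), and had −0.49 in RF5 at TP2 (FDR 0.0596). Summed over the 6 members, the level was 6.04 to 8.78 CPM in RF5 at TP2, 9.54 to 11.7 in RF3, 12.1 to 14.4 in RF4, 8.47 to 15.5 in RF1 and 8.03 to 15.8 in RF2. At TP1 it was 17.3 to 20.97 CPM in RF3 and 11.4 to 14.6 CPM over the other RFs. The part of these nuclei in the differences of other members, such as those lower in RF5 at TP2 or higher in RF3 at TP1, was not tested.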

How the data were processed

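The authors trimmed reads with fastp, aligned them with Bowtie2 to GRCm38 (Ensembl annotation), marked duplicates with Picard 1.140 and called broad peaks in each library with MACS2 2.1.4. The deposited library peak lists give a −log10 q value per peak. Peaks found in at least 3 of 5 libraries of a group were merged over the 10 groups by the authors, who deposited the number of groups per merged peak and raw counts of reads per merged peak and library. The deposited table named as normalized holds the same values and was not used.

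Members were the merged peaks with a number from 2 to 5, matched to the counts by coordinates. The members and the lists were chosen with earlier results of these data known. The groups that hold each peak are not in the merged list. They were rebuilt from the library lists, which gave the coordinates and the number of all 144465 merged peaks. The rule first planned, any overlap in 3 libraries, is given as an alternative, and so the rebuild was chosen after seeing the data. In some members the rebuild found more distinct groups than the number.

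Counts of all merged peaks were fitted with edgeR 4.0.16 in R 4.3.3 (TMM scaling, filterByExpr, robust quasi-likelihood tests), with p-values adjusted by Benjamini-Hochberg over all peaks tested. The RF fits at each TP and the interaction had the replicate number as a block, after the batch term of the study's model (nuclei were sorted in 5 batches per TP with 1 sample of each RF), and the TP comparison had none. CPM in the text are counts scaled to the same total over all merged peaks in each library, without TMM. The fits were run on simulated counts that were independent between libraries and had a fixed dispersion. The simulation held no regional shift, batch or alike libraries, so it says nothing on how these affect the calls. Alternatives used DESeq2 1.42.0, limma 3.58.1, other filters, offsets and sets of libraries. The confidence interval covers counting error only.

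Gene starts are those of the RefSeq promoter table of GRCm38.p6, with 21263 starts of 17492 protein-coding genes, and a gene is named for a peak by position only. Named peaks were those with the 6 largest fold changes at each TP (at most 2 per RF and 1 per Mb), the member of highest CPM held by each RF alone, the 5 of highest CPM at gene starts, the 3 with the largest and the 3 with the smallest fold change between TPs, and those at starts of listed genes with the highest CPM. Figures were drawn with matplotlib 3.10.9.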

Additional observations from a re-analysis of the deposited data

Results flagged for a closer look

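In 17 of 180 sets of 5 libraries of a group, the highest or lowest library stood further from the other 4 than Dixon's 95% limit of 0.71 of the range allows, where chance gives about 1 set in 20. Of these, 6 were shares of member counts in 1 Mb bins with 2 genes or fewer. In RF2 at TP2 the share of replicate 5 was 21.7%, in RF4 at TP2 that of replicate 1 was 19.7%, and in RF5 at TP2 that of replicate 1 was 22.5%, each above the other 4. In RF2 at TP1 replicate 2 was below the others at 18.6%, and in RF3 and RF5 at TP1 replicate 1 was above them at 18.4% and 18.9%. Replicate 3 of RF4 at TP1 had a call in 48.5% of members, above its group.

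The other 10 were CPM values among 14 named members looked at in this way. Col19a1 had 4 of them: 9.0 in RF1 and 2.34 in RF2 at TP2, and 0.291 in RF1 and 4.74 in RF3 at TP1. Replicate 5 was the low library for Aldh1l1 in RF1 (0.732) and for Nat8 in RF2 (0.0768), both at TP2. At TP2 Cldn5 had 1.61 in RF1, Gfap 1.57 in RF3 and the member near Ndufa4 2.098 in RF5. Gjb6 had 2.01 in RF2 at TP1.

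For 29 of the 37 members named with values, the RF differences at TP2 were not those at TP1 by the edgeR interaction test over all peaks, which called 54.4% of all merged peaks. Many were named for large fold changes in these same counts, which favours an interaction, so nothing is read from this share. Among those with the largest fold changes, the FDR was 1.22e-07 for Col19a1, 3.28e-19 for Actrt2, 3.25e-10 for Ankrd22, 4.77e-14 for Ccdc34, 1.45e-06 for Nat8, 2.52e-05 for Snd1, 2.99e-16 for Ndufa4, 9.38e-14 for Fam171a1, 3.62e-05 for Pde3a and 1.77e-17 for Tcte2. Among those between time points it was 0.0093 for Adcyap1, 6.97e-08 for Inhbb, 2.01e-12 for LOC100504180 and 7.82e-08 for Echdc3. It was 0.000551 for Dgki, 1.11e-05 for Syt7, 4.33e-06 for Slc12a5, 0.000195 for 1700029I15Rik, 4.06e-05 for Zmynd8, 1.27e-10 for Nkx6-2, 4.84e-10 for Ak1, 2.05e-05 for Kcnn1, 5.92e-05 for Grin3b and 0.000279 for Fos. Among the glial and endothelial members it was 3.50e-09 for Aldh1l1, 3.19e-14 for Gfap, 3.47e-07 for Olig2, 4.47e-05 for Trem2 and 1.92e-06 for Cldn5. Age, place and sequencing batch changed with the time point and cannot be told apart.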

How the results depend on the processing

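Both the counts of RF-dependent members at TP2 and the counts of members held depended on the choices. Under the alternatives run, 93 of 150 values of the main counts stayed close and 57 moved. The limit for close was loose, so a count called close could still change by a good part of its size. With a 1 Mb region offset there were 1376 members dependent on RF at TP2, 870 and 4775 different in 1 RF at TP2 and TP1, 6936 with an interaction, 179 higher and 374 lower at TP2. With alike libraries summed, 2586 depended on RF at TP2 and 1626 differed in 1 RF, and without RF1 replicates 3 and 5 and RF2 replicate 5, an alternative chosen after seeing the data, 13504 and 8934. Leaving out 1 replicate number in all groups gave 2678 to 9624 RF-dependent members at TP2, 1825 to 6890 different in 1 RF at TP2, 10853 to 15861 with an interaction, 553 to 1203 higher and 465 to 839 lower at TP2. At TP1 it gave 13099 to 17371 and 7402 to 10673. For members different in 1 RF, with an interaction or different between time points, no matching counts over all merged peaks are given under these alternatives.

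Membership moved with most rules for holding. With any overlap in 3 libraries, the rule first planned, 2440 members were held at TP2 only, 7493 at TP1 only, 26170 at both and 482 by 1 RF. Without RF1 replicates 3 and 5 and RF2 replicate 5, 1946 were held by 1 RF. With 1 replicate left out (3 of 4 libraries needed), 5079 to 6120 members were held at TP2 only, 12296 to 14183 at TP1 only, 13288 to 16467 at both and 8480 to 9911 by 1 RF only. With 2 of 5 libraries these were 907 at TP2 only, 2082 at TP1 only and 41 by 1 RF. With 4 of 5 they were 4892, 14398, 7722 at both and 11654 by 1 RF. With −log10 q above 5 they were 42, 2229, 46 and 1555, and 33786 members were held by no group. With a cover of at least 50% of the merged peak, 4705 were held at TP1 only, 900 at both and 6017 by 1 RF. Without the 2 shallowest libraries, 1126 were held by 1 RF. The share near gene starts was 2.44% at 2 or 3 groups, 2.86% at 4 or 5, 1.80% within 1 kb and 5.73% within 5 kb.

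Without the replicate block, 7118 members depended on RF at TP2 and 16834 at TP1, and 16093 had an interaction. With the block within each TP, 795 were higher and 617 lower at TP2. Deviations of libraries with the same number correlated at 0.00149 on average at TP2 (1 of 50 pairs over 0.1) and 0.0572 at TP1 (13 of 50), and 4 and 10 of 25 libraries were closest to their own number. Nuclei were sorted in batches of 1 sample per RF, but the labels do not say that a replicate number marks such a batch. Below about 1 CPM, differences rest on few reads in the 2 shallow libraries.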
